A study of Zea mays with 74 samples.

Results

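Selective sweeps found between landraces and modern maize, and in neither comparison with teosinte, are described here. Of the 1375 landrace-maize sweeps in the deposited table, 632 (46%) shared no base with any of the 1330 teosinte-maize or 1355 teosinte-landrace sweeps and were taken as landrace-maize-only sweeps. The other 743 overlapped a sweep of another comparison by at least 1 bp. These were 259 that met only teosinte-maize sweeps, 178 that met only teosinte-landrace sweeps and 306 that met both. The 632 sweeps covered 85.3 Mb, which was 4.05% of the 2105 Mb spanned by the 10 chromosomes and 26.2% of the sequence in landrace-maize sweeps.

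The study resequenced the genomes and methylomes of 20 plants of teosinte (Zea mays ssp. parviglumis, the wild ancestor of maize), taken from a natural population near Palmar Chico, and of 17 plants of Mexican landraces (farmer varieties), and set them beside 14 modern maize inbred lines whose methylomes were published earlier. No treatment was applied. Beside population, the groups differ in sequencing depth and, for modern maize, in inbreeding and in the study the data came from, and these cannot be told apart. Each plant gave 1 genome and 1 bisulfite library. The teosinte plants stand for 1 natural population and the modern lines are inbred, which limits each group as a picture of its subspecies or breeding pool. The sweeps and the differentially methylated regions (DMRs) were each called once for a pair of populations, so no value in either table has a spread between plants.

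A selective sweep is the stretch of sequence around a favoured allele in which variation falls and allele frequencies shift as that allele spreads. Teosinte and landraces are separated by domestication, while landraces and modern maize are separated by later breeding. The question here is where sweeps were called between landraces and modern maize outside the sweeps called against teosinte. A region without a sweep in a comparison was not among the outliers kept there, which does not show that selection was absent. The score XP-CLR compares allele frequencies between 2 populations over neighbouring SNPs, and a higher score marks a stronger local shift. Plants methylate cytosines in the contexts CG, CHG and CHH, where H is any base but G. CG methylation is copied at each cell division by a maintenance enzyme, CHG methylation is kept in a loop with histone marks, and CHH methylation has to be set anew.

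Landrace-maize-only sweeps were short. Their length ran between 50 and 695 kb with a median of 110 kb and an interquartile range of 80 to 165 kb, whereas the other landrace-maize sweeps had a median of 195 kb, an interquartile range of 115 to 350 kb and a maximum of 3990 kb. None of the 632 was over 1 Mb, against 40 of the others, and 5 were over 500 kb, against 115 of the others. At or under 100 kb lay 301 landrace-maize-only sweeps and 143 others. The rule itself bears on length, because a long sweep meets another sweep more easily than a short one. Regions, and not plants, are the units here and the rule chose them, so lengths, scores and DMR numbers are given as descriptions without tests.

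The scores were lower as well. XP-CLR had a median of 78.6 in the landrace-maize-only sweeps (interquartile range 69.7 to 94.6, lowest 62.1, highest 187), against 92.4 in the other landrace-maize sweeps (76.1 to 116, highest 350). Among the 100 highest scores of the comparison 14 belonged to landrace-maize-only sweeps, and among the 10 highest none did. The others did not stand at 1 level. The median was 102 where a sweep met both other comparisons, 90.1 where it met teosinte-maize sweeps only and 86.5 where it met teosinte-landrace sweeps only.

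Within sweeps of like length the scores were closer together up to 200 kb, but not in the class over 200 kb. In the class over 50 to 100 kb, 295 landrace-maize-only sweeps had a median XP-CLR of 76.0 and 129 others had 76.7. In the class over 100 to 200 kb, the medians were 80.9 for 231 landrace-maize-only sweeps and 83.4 for 239 others. Over 200 kb they were 93.0 for 100 landrace-maize-only sweeps and 109 for 361 others, although here the landrace-maize-only sweeps were still shorter, with a median length of 255 kb against 360 kb. Landrace-maize-only sweeps made up 69.6% of the first of these classes, 49.1% of the second and 21.7% of the last. At the minimum length of 50 kb the order was the other way, with a median of 73.9 for 6 landrace-maize-only sweeps and 68.3 for 14 others. Median scores of the landrace-maize-only sweeps were higher in each longer class.

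**Figure D1:**
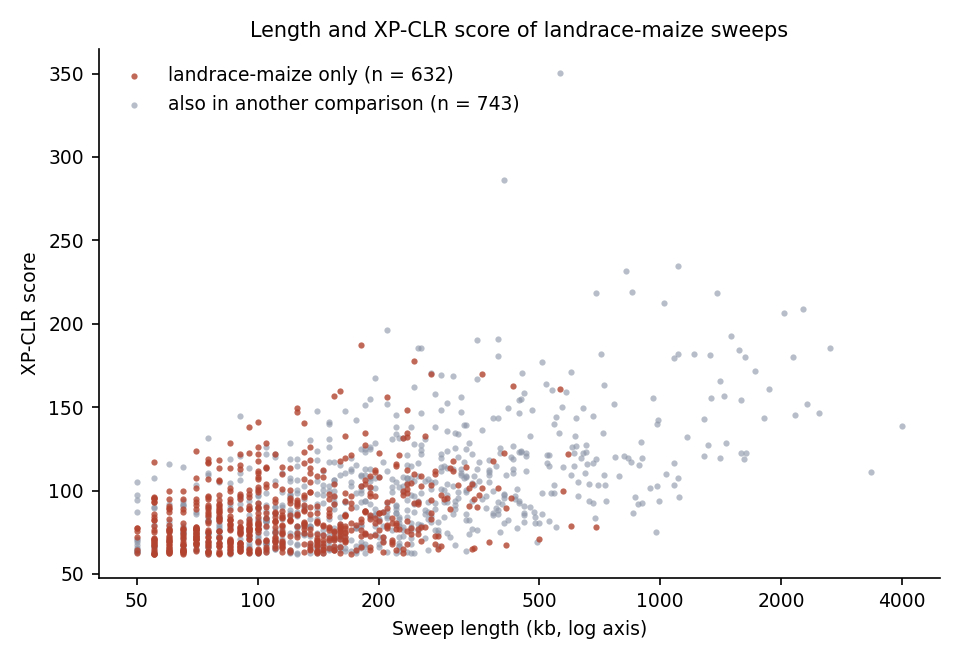
Length (kb, log axis) and XP-CLR score of each landrace-maize sweep, with the 632 landrace-maize-only sweeps in red and the 743 others in grey. All landrace-maize-only sweeps lie at or below 695 kb and at or below a score of 187, while the grey points reach 3990 kb and 350.

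The 10 landrace-maize-only sweeps of highest score lay on chromosomes 1, 2, 3, 4, 5 and 9. The highest was chr3:184670001-184850000 (coordinates here and below are of B73 AGPv4), 180 kb long, with an XP-CLR of 187, the rank of 15 among all landrace-maize sweeps. It held 5 DMRs, 2 in CG and 3 in CHG, all between teosinte and modern maize. The next, chr2:224905001-225150000, scored 178 and held no DMR. A pair of sweeps on chromosome 4 followed at 170 each, chr4:206890001-207250000 with 3 DMRs and chr4:43625001-43895000 with 2. On chromosome 5 chr5:68945001-69375000 scored 163 and held 2 DMRs, chr5:64275001-64435000 scored 160 and chr5:52355001-52480000 scored 149. The last 3 of the 10 were chr1:234920001-235485000 at 161, chr9:143115001-143270000 at 157 and chr2:146715001-146925000 at 156. Of these 10 sweeps 5 held a DMR, and none held a DMR between landraces and modern maize.

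Scores of the longest sweeps varied widely. The longest landrace-maize-only sweep, chr10:111600001-112295000, spanned 695 kb with an XP-CLR of 78.4, close to the median of the set. Next in length, chr1:58050001-58650000 (600 kb) scored 78.8, chr4:162345001-162935000 (590 kb) scored 122, and chr8:105980001-106555000 (575 kb) scored 99.99. None of these 4 held a DMR. The fifth, chr1:234920001-235485000 (565 kb), was also among the 10 of highest score and held 3 DMRs, 1 in CG and 2 in CHG between teosinte and modern maize.

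The sweeps lay on all 10 chromosomes. Numbers ran between 40 landrace-maize-only sweeps on chromosome 10, against 63 others there, and 92 on chromosome 1, against 121 others. Chromosome 9 stood apart by share, since 62 of its 104 landrace-maize sweeps (59.6%) were landrace-maize-only, the only chromosome where they were the larger number. Chromosome 3 had 68 of each kind. The lowest shares were 38.8% on chromosome 10, 40.9% on chromosome 4 and 41.7% on chromosome 6. Relative to chromosome length, chromosome 9 held 38.8 landrace-maize-only sweeps per 100 Mb and chromosome 6 held 24.7, with the other 8 chromosomes between these values. Chromosome 9 was also the chromosome with the least sequence in sweeps of the other comparisons (16.6%), and chromosome 4, with a low share, had the most (30.7%), and the part of this in the shares was not tested.

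**Figure D2:**
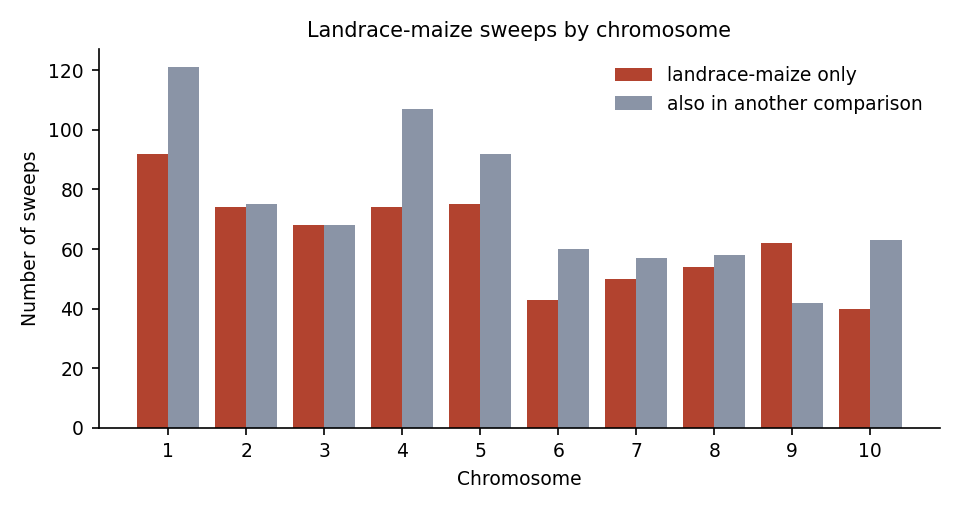
Number of landrace-maize-only sweeps (red) and of the other landrace-maize sweeps (grey) on each of the 10 chromosomes. The red bar is the higher only on chromosome 9 (62 against 42), and both bars stand at 68 on chromosome 3.

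Along the chromosomes landrace-maize-only sweeps were spread more evenly than the others. Within the outer 10% of chromosome length, measured from the nearer end, lay 136 of them (21.5%) and 65 of the others (8.75%). In the innermost zone, at 40 to 50% of chromosome length, lay 103 (16.3%) and 191 (25.7%). The share of landrace-maize sweeps that were landrace-maize-only fell at each step inward, with 67.7% in the outermost zone, then 49.8%, 42.9%, 41.1% and 35.0%. Over the same zones the sequence in sweeps of the other comparisons took 8.18%, 16.4%, 24.7%, 32.7% and 35.6%. The share of landrace-maize-only sweeps was thus lower where the other comparisons covered more sequence, and the part of this in the pattern was not tested. The zones hold equal lengths of sequence, 421 Mb each, with each chromosome taken to end at the last position either table gives for it.

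**Figure D3:**
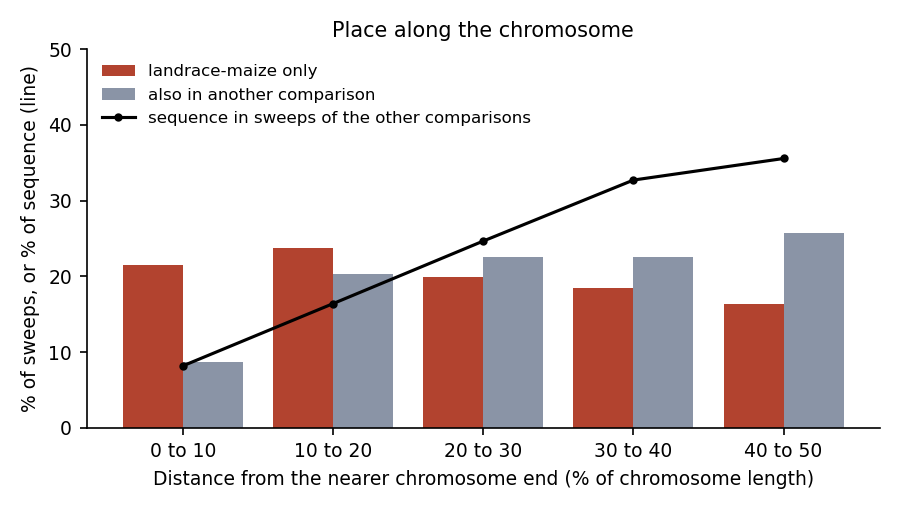
Share of the landrace-maize-only sweeps (red) and of the other landrace-maize sweeps (grey) in 5 zones of distance from the nearer chromosome end (percent of chromosome length), with the percent of each zone's sequence that lies in sweeps of the other comparisons as a line. Red bars are highest in the outer zones (21.5 and 23.7%), and the line climbs inward to 35.6%.

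Landrace-maize-only sweeps lay at varied distances from the sweeps of the other comparisons. The median gap to the nearest of these was 335 kb. Of the 632, 135 (21.4%) lay within 100 kb, 405 within 500 kb and 98 (15.5%) beyond 1 Mb. The nearest sweep was of the teosinte-landrace comparison for 337 and of the teosinte-maize comparison for 295. Just inside the rule, 5 landrace-maize-only sweeps touched a sweep of another comparison with no base between them, at chr1:72940001-73080000, chr4:22995001-23085000, chr4:133260001-133330000, chr5:76515001-76705000 and chr6:9460001-9600000, with XP-CLR of 80.9, 115, 70.2, 83.0 and 86.3 in this order. Just outside it, the landrace-maize sweeps least covered by the other comparisons were chr1:212675001-213120000 (1.12% covered, XP-CLR 93.9), chr1:92855001-93080000 (2.22%, 71.8) and chr1:210895001-211055000 (3.12%, 116). Few sweeps stood at this border. Of the 743 others only 9 were covered by less than 10% of their length, the median was covered by 86.4%, and 261 were covered whole.

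Landrace-maize-only sweeps were also more scattered among the landrace-maize sweeps themselves, with a median gap of 400 kb to the nearest other landrace-maize sweep, against 245 kb for the others. Within 100 kb of another landrace-maize sweep lay 73 of them (11.6%) and 172 of the others (23.1%). In places several fell between the same 2 neighbouring sweeps of the other comparisons. Of 429 such gaps that held a landrace-maize-only sweep, 299 held 1 alone and 8 held 5 or more. The fullest gaps, named here after their values were seen, were 2 with 7 sweeps each on chromosome 2. That at chr2:221235001-231520000 was 10.3 Mb wide, and its sweeps had a median XP-CLR of 89.8 and included the sweep of score 178. That at chr2:126965001-131460000 was 4.50 Mb wide, with a median of 67.6. The sweep farthest from any other comparison, chr8:180675001-180910000, lay 10120 kb away near the end of its chromosome.

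The DMRs held in these sweeps address whether differences in methylation between populations gather where sweeps were called between landraces and modern maize only. The DMR table gives for each DMR a position, a context and a pair of populations, with no methylation level, so the direction of a difference was not analysed here. Landrace-maize-only sweeps held 210 of the 6389 DMRs (3.29%, exact 95% binomial interval 2.86 to 3.75%), or 2.46 per Mb, against 5.13 per Mb in the other landrace-maize sweeps, 2.40 per Mb outside all sweeps and 3.03 per Mb over the genome. All landrace-maize sweeps together held 22.6% of the DMRs in 15.5% of the genome. Such intervals cover counting error only, and DMRs that lie together are not independent of each other. The density in landrace-maize-only sweeps was therefore near that of sequence in no sweep and below that of the other landrace-maize sweeps as a whole. The others differed among themselves, with 5.91 per Mb where a sweep met both other comparisons and 4.85 where it met teosinte-maize sweeps only. Sweeps that met teosinte-landrace sweeps only held 2.45 per Mb, about the density of the landrace-maize-only sweeps.

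Of the 210 DMRs most were between teosinte and modern maize, the pair with the most DMRs in the genome. In that pair landrace-maize-only sweeps held 50 of 1545 CG DMRs (0.586 per Mb, interval 0.437 to 0.769), 85 of 2372 CHG DMRs (0.997 per Mb, 0.799 to 1.23) and 33 of 1055 CHH DMRs (0.387 per Mb). The other landrace-maize sweeps held 1.24, 1.72 and 0.904 per Mb in these contexts, and the genome 0.734, 1.13 and 0.501. Sweeps that also met teosinte-landrace sweeps only held 0.530, 0.809 and 0.279 per Mb. For CG and for CHG the intervals of landrace-maize-only sweeps and of all the others together did not overlap. The landrace-maize-only intervals did overlap those of sweeps that met teosinte-landrace sweeps only (CG 0.320 to 0.825, CHG 0.543 to 1.16 per Mb). By their rule, landrace-maize-only sweeps lie outside every teosinte-maize sweep, which the other landrace-maize sweeps in part do not. All landrace-maize sweeps together held 22.5% of the CG, 21% of the CHG and 23.7% of the CHH DMRs of this pair, in 15.5% of the genome. The landrace-maize-only ones held 3.24%, 3.58% and 3.13%, in 4.05% of the genome. The CG value depended on the scores kept, since the 239 landrace-maize-only sweeps in the upper 50% of all landrace-maize scores held 0.842 per Mb, above the genome.

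DMRs between teosinte and landraces had the lowest CG and CHG densities relative to the genome. Landrace-maize-only sweeps held 12 of 431 in CG and 12 of 590 in CHG, 0.141 per Mb each, against 0.367 and 0.554 per Mb in the other landrace-maize sweeps. In the same order, sweeps that met teosinte-landrace sweeps only held 0.223 and 0.223 per Mb. Those that met teosinte-maize sweeps only held 0.199 and 0.415, and those that met both held 0.472 and 0.694. The genome had 0.205 and 0.280 per Mb, so that CG stood at 0.687 times and CHG at 0.502 times the genome's density. The interval for CG, 0.0731 to 0.243 per Mb, spanned the genome's value, and that for CHG, 0.0730 to 0.244, lay below it. In the 239 landrace-maize-only sweeps in the upper 50% of scores both densities were 0.237 per Mb, above the genome in CG and below it in CHG. In CHH there was 1 of 22. All landrace-maize sweeps together held 23.2% of the CG, 24.6% of the CHG and 31.8% of the CHH DMRs of this pair. The landrace-maize-only sweeps are by their rule outside every teosinte-landrace sweep, which the other landrace-maize sweeps in part are not.

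DMRs between landraces and modern maize, the pair in which these sweeps were called, were few. With the wide intervals that follow, a contrast with the other 2 pairs cannot be read. Landrace-maize-only sweeps held 8 of 171 CG DMRs (0.0938 per Mb, interval 0.0409 to 0.181) and 9 of 188 CHG DMRs (0.106 per Mb, 0.0488 to 0.196), 1.16 and 1.18 times the genome's 0.0812 and 0.0893 per Mb. The other landrace-maize sweeps held 0.142 and 0.167 per Mb, and sequence in no sweep 0.0582 and 0.0602. For CG and CHG taken apart, the intervals of the landrace-maize-only sweeps took in all these values. Counted as 1 set over all 3 contexts, CHH included, the 17 DMRs gave 0.199 per Mb (interval 0.117 to 0.315), which spanned the genome's 0.178. The other landrace-maize sweeps held 0.325 per Mb (0.263 to 0.395), 4 CHH DMRs included, and the 2 intervals overlapped. CG and CHG were not pooled without CHH for this comparison. Of the 8 CG DMRs 3 overlapped a landrace-maize CHG DMR, and the pooled interval counts such calls as separate. In CHH there was none of 15, with an exact 95% interval of up to 21.8%. Over all landrace-maize sweeps, 15.5% of the genome, the shares of these DMRs that lay in a sweep were 24.6% in CG, 26.1% in CHG and 26.7% in CHH. In the landrace-maize-only ones, 4.05% of the genome, they were 4.68%, 4.79% and 0%.

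**Figure D4:**
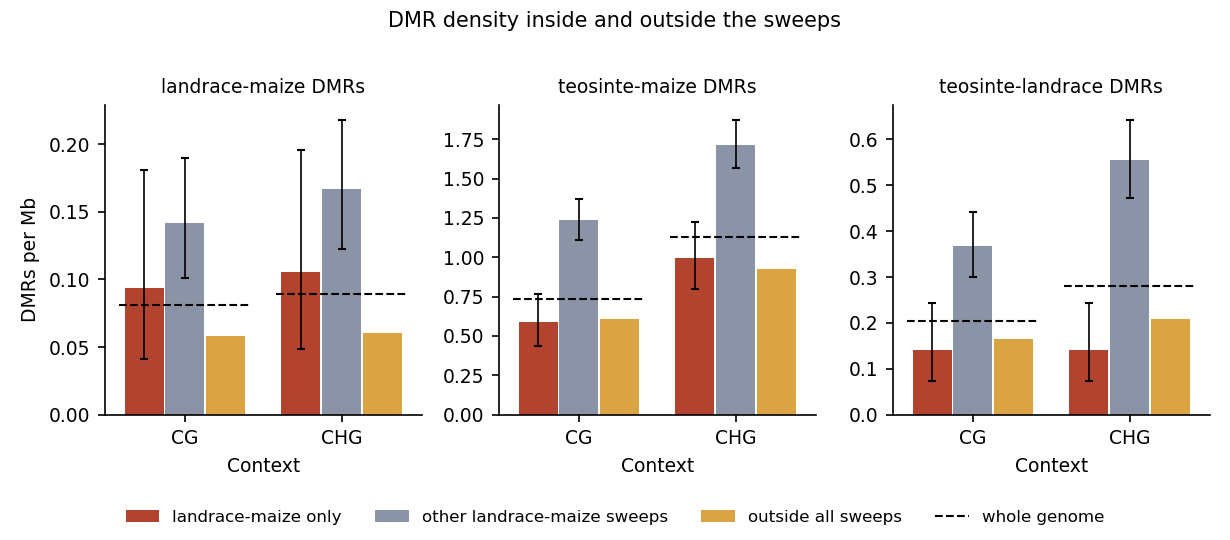
DMRs per Mb in CG and CHG contexts, for the DMRs of each pair of populations, in landrace-maize-only sweeps (red), other landrace-maize sweeps (grey) and sequence in no sweep (yellow), with the genome as dashed lines and exact 95% binomial intervals of the share of the class (counting error only) on the sweep bars. For teosinte-maize and teosinte-landrace DMRs the red bars lie under the dashed line and the grey bars above it. For landrace-maize DMRs the red bars lie at 0.0938 and 0.106 per Mb, slightly above the line, with intervals that span it.

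The DMRs sat in few sweeps. At least 1 DMR was found in 105 landrace-maize-only sweeps (16.6%) and in 307 of the others (41.3%), against 30% of all landrace-maize sweeps. A teosinte-maize DMR was found in 99 (15.7%) and 292 (39.3%), against 28.4% of all, a teosinte-landrace DMR in 19 (3.01%) and 102 (13.7%), against 8.8%, and a landrace-maize DMR in 12 (1.90%) and 54 (7.27%), against 4.8%. Length bears on these shares, since a longer sweep has more room. Within a length class, a DMR was found in 7.46% of landrace-maize-only sweeps and 17.8% of the others over 50 to 100 kb, in 19.5% and 25.9% over 100 to 200 kb, and in 38% and 61.2% over 200 kb. Per Mb of sweep, these classes held 1.57, 2.80 and 2.80 DMRs in landrace-maize-only sweeps and 4.21, 4.01 and 5.39 in the others. Against the others as a whole, the lower number of DMRs was thus found at each of these lengths. Among the others, a DMR was found in 22.5% of sweeps that met teosinte-landrace sweeps only. It was found in 37.8% of those that met teosinte-maize sweeps only and in 55.2% of those that met both. These parts were not compared within length classes.

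Of the 105 sweeps with a DMR, 55 held 1, 27 held 2, 11 held 3, and 11 held 5 or more. Sweeps with a DMR had a median length of 155 kb and a median XP-CLR of 86.3, against 100 kb and 77.7 for the 527 without. In both groups scores ran nearly over the whole range, from 62.2 up to 187 with a DMR and from 62.1 up to 178 without. DMRs that overlapped each other fell into 156 stretches, of which 118 were of 1 DMR. Stretches with DMRs of 2 pairs of populations numbered 19, and 1 stretch held DMRs of all 3 pairs.

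The DMRs in these sweeps were of ordinary length for their class. Median lengths were 323.5 bp in CG, 389 bp in CHG and 85 bp in CHH between teosinte and modern maize, against 333, 458 and 109 bp for these classes over the genome. Between landraces and modern maize they were 283.5 bp in CG and 310 bp in CHG, against 244 and 298.5 bp. The share of DMRs near the edges of the sweeps was above the share of sequence there, which was not tested. DMRs that reach over an edge count as near it even with a midpoint outside, and overlapping DMRs count separately. Of the 210, 56 (26.7%) had their midpoint within 10 kb of an edge, a belt that takes 14.8% of the sequence of these sweeps, and 4 of the 17 landrace-maize DMRs did.

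With all pairs of populations pooled, DMR density changed little on leaving a landrace-maize-only sweep, and the values by pair rest on smaller counts. Taking CG and CHG together over all 3 pairs, there were 2.05 DMRs per Mb inside the sweeps, and in sequence outside all sweeps 2.42 per Mb within 50 kb of an edge, 2.01 at 50 to 100 kb, 1.81 at 100 to 250 kb, 1.77 at 250 to 500 kb, 1.98 at 500 kb to 1 Mb and 2.12 beyond. By pair, teosinte-maize DMRs had 1.57 per Mb inside and 1.83 within 50 kb, with between 1.34 and 1.62 in the farther belts. Teosinte-landrace DMRs had 0.281 inside, from 24 DMRs, and 0.477 within 50 kb, from 29, with between 0.313 and 0.405 farther out. Landrace-maize DMRs alone had 0.199 per Mb inside, from 17 DMRs, and 0.115 within 50 kb, from 7, with between 0.0923 and 0.165 in the farther belts. With counts of this size the order of these values cannot be read.

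The 12 landrace-maize-only sweeps with a landrace-maize DMR lay on 5 chromosomes, 4 on chromosome 9, 3 each on chromosomes 1 and 2, and 1 each on chromosomes 3 and 5. Chromosome 9 held 7 of the 17 landrace-maize DMRs and chromosome 1 held 5. The scores of the 12 ran between 67.2 and 127 and none ranked among the 100 highest of the comparison. Their lengths ran between 55 and 360 kb.

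The sweep with the most DMRs of the whole set, chr1:23260001-23445000 (185 kb, XP-CLR 87.5), held 8, and all 8 fell in a single stretch of overlapping DMRs, 1976 bp long, at chr1:23270068-23272043. This was the stretch with DMRs of all 3 pairs. It held a landrace-maize CG DMR of 131 bp at chr1:23270725-23270855 and a landrace-maize CHG DMR of 797 bp at chr1:23270724-23271520, with 2 CG and 3 CHG DMRs between teosinte and modern maize and 1 CHG DMR between teosinte and landraces. The 2 teosinte-maize CG DMRs lay downstream of the gene Zm00001d028114.

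On chromosome 9, the sweep chr9:119230001-119380000 (150 kb, XP-CLR 77.3) held 7 DMRs, of which 3 were between landraces and modern maize, more than in any other landrace-maize-only sweep. At chr9:119362531-119363152, a stretch of 622 bp, 1 CG and 1 CHG DMR of the landrace-maize pair overlapped 1 CG and 1 CHG DMR of the teosinte-maize pair. A further landrace-maize CG DMR at chr9:119248446-119248684 lay wholly within a teosinte-maize CG DMR at chr9:119248295-119248741, which was upstream of Zm00001d047116. About 1 Mb on, chr9:120345001-120675000 (330 kb, XP-CLR 114) held 6 DMRs. Its landrace-maize CHG DMR at chr9:120515206-120515328 ended at the same base as a teosinte-landrace CHG DMR, and its landrace-maize CG DMR at chr9:120589401-120589587 overlapped no other DMR. The other sweeps of the chromosome were chr9:109520001-109880000 (XP-CLR 101) with a CG DMR close to its edge, at chr9:109521371-109521629, and chr9:144300001-144390000 (XP-CLR 68.0) with a CHG DMR of 620 bp that overlapped no other DMR.

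A sweep on chromosome 1, chr1:260480001-260535000, was among the shortest of the set at 55 kb (XP-CLR 70.0) and held DMRs of the landrace-maize pair alone. A CG DMR of 308 bp at chr1:260487934-260488241 and a CHG DMR of 310 bp at chr1:260487941-260488250 covered nearly the same bases. Sweeps whose only DMR was a landrace-maize one were chr2:177435001-177670000, chr3:6140001-6270000 and the last of chromosome 9 above, each with 1 CHG DMR. In chr1:87095001-87295000 the landrace-maize CHG DMR overlapped a teosinte-maize CHG DMR, and in chr5:7445001-7505000 (60 kb) the 2 such DMRs shared the start base at 7490626, with lengths of 436 bp for landrace-maize and 727 bp for teosinte-maize.

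The remaining 2 lay in the wide gap on chromosome 2 described above. In chr2:225215001-225400000, which had the highest score of the 12 (XP-CLR 127), a landrace-maize CG DMR of 492 bp overlapped no other DMR. This sweep lay 65 kb from the sweep of score 178, chr2:224905001-225150000, and 3980 kb from the nearest sweep of another comparison. In chr2:226925001-227045000 (XP-CLR 94.5) a landrace-maize CG DMR of 405 bp overlapped a teosinte-maize CG DMR downstream of Zm00001d007294.

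**Figure D5:**
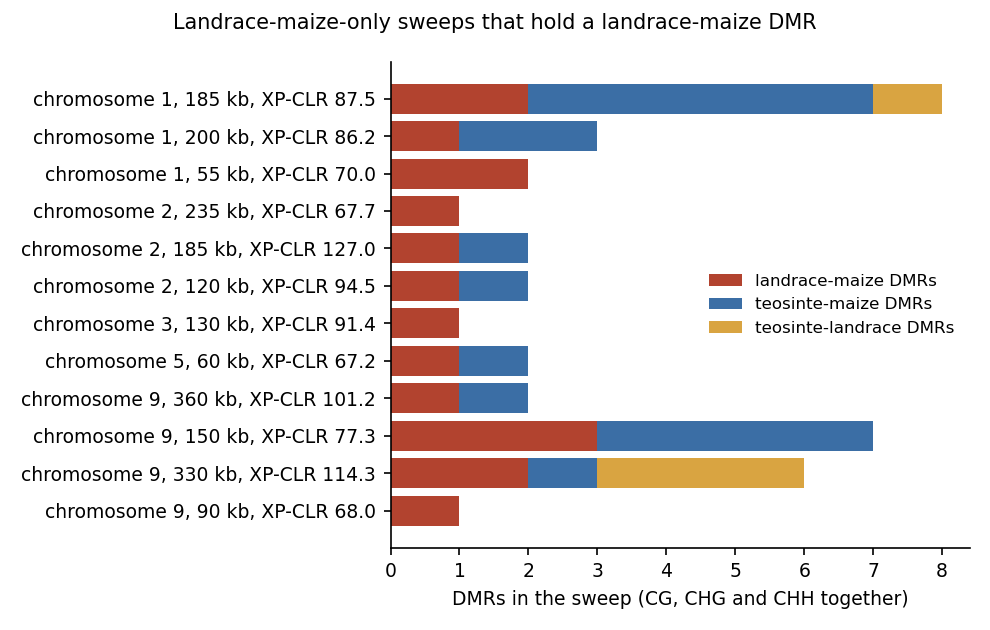
Number of DMRs, in CG, CHG and CHH contexts together, in each of the 12 landrace-maize-only sweeps that hold a landrace-maize DMR, coloured by the pair of populations the DMR was called between. Totals run between 1 and 8, and 4 sweeps hold landrace-maize DMRs alone.

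Sharing of a position between DMRs varied around its frequency in the genome, on small counts. Of the 8 landrace-maize CG DMRs in landrace-maize-only sweeps 4 overlapped a teosinte-maize CG DMR, against 48.5% of 171 over the genome, and 3 overlapped a landrace-maize CHG DMR, against 34.5%. None of the 8 overlapped a teosinte-landrace CG DMR, against 8.77%. Of the 12 teosinte-landrace CG DMRs 9 overlapped a teosinte-maize CG DMR (75%, against 61.7% of 431), and of the 50 teosinte-maize CG DMRs 21 overlapped a teosinte-maize CHG DMR (42%, against 49.8% of 1545). Farther from the genome, 6 of 85 teosinte-maize CHG DMRs overlapped a teosinte-landrace CHG DMR (7.06%, against 15.01%), and 2 of 12 teosinte-landrace CG DMRs overlapped a teosinte-maize CHG DMR (16.7%, against 42.5%). In the other direction, 2 of 9 landrace-maize CHG DMRs overlapped a teosinte-landrace CHG DMR (22.2%, against 7.98%). The pairs share populations, so such overlaps are not independent calls.

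With chr9:120345001-120675000, 4 landrace-maize-only sweeps held 6 DMRs. In chr5:53490001-53795000 (305 kb, XP-CLR 112) 2 CG and 2 CHG DMRs and 1 CHH DMR were between teosinte and modern maize and 1 CG DMR was between teosinte and landraces. In chr5:64935001-65070000 (135 kb, XP-CLR 73.9) 2 CG and 4 CHG DMRs were all between teosinte and modern maize. The fourth, chr3:180315001-180815000, was 500 kb long with an XP-CLR of 70.7.

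For CG DMRs between teosinte and modern maize, the study's own lists give the nearby gene. These lists paired 38 of the 50 such DMRs in landrace-maize-only sweeps with 36 gene IDs, of which 15 had the DMR upstream, 14 in the gene body or an exon, and 11 downstream, some under more than 1 heading. This was 76% of the 50, against 52.5% (811) of all 1545 such DMRs. The share was not computed for the other landrace-maize sweeps or for sequence in no sweep. It therefore cannot be called particular to the landrace-maize-only sweeps. The gene table used here, of another assembly, matched none of the 36 IDs, so they are given without names or roles. None of the 50 DMRs stood in the lists of flowering time genes, which held 10 of the 1545, or of genes in contact with an intergenic DMR, which held 42.

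An exonic DMR was listed for 9 genes, with 9 of the 50 DMRs (18%), against 227 of the 1545 (14.7%). In the sweep of highest score, chr3:184670001-184850000, a DMR of 556 bp at chr3:184757115-184757670 lay in an exon of Zm00001d042955, and another of 139 bp lay upstream of Zm00001d042954. In 2 further sweeps among the 10 of highest score, exonic DMRs of 390 bp and 166 bp were listed for Zm00001d049763 on chromosome 4 (XP-CLR 170) and Zm00001d014943 on chromosome 5 (XP-CLR 163). The other 6 exonic genes were Zm00001d033745, Zm00001d043882, Zm00001d048734, Zm00001d014013, Zm00001d018133 and Zm00001d046912, in sweeps of XP-CLR 67.5 to 122. With listed DMRs of any place counted, only Zm00001d043882 and Zm00001d028114 had 2. Those of Zm00001d043882 were 1 upstream and 1 listed as downstream and exonic, and both of Zm00001d028114 were downstream. In the remaining sweeps among the 10 of highest score, Zm00001d052978 had a DMR of 835 bp in its gene body and Zm00001d032707 had one of 197 bp upstream.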

How the data were processed

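The authors mapped whole-genome reads to B73 AGPv4 and called SNPs. They computed XP-CLR in sliding windows of fixed width, with a fixed number of SNPs assayed in each. Neighbouring windows in the upper tail were merged and the outliers kept. The deposited table holds the resulting score with the position and the pair of populations. The score has no fixed range and was compared only within the landrace-maize comparison. The submitters' processing notes name BWA, Picard, GATK 4 and Bismark. The authors mapped bisulfite reads to B73 carrying each plant's SNPs and called DMRs between populations with metilene. The deposited DMR table gives positions, contexts and comparisons. The effect of depth, which differs between populations, was not analysed here. Calling between populations leaves out differences below the authors' minimum and any spread between plants.

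Sweep bounds lie on a grid of 5 kb, with 1-based starts. No source used here says whether DMR starts are 0-based or 1-based. They were read as 0-based. A DMR was held in a sweep when they shared at least 1 bp. Overlap was checked on simulated regions and against bedtools 2.31.1. Intervals are exact 95% binomial intervals. Genes came from the study's lists, matched by DMR position. Named were the 10 sweeps of highest score, the 5 longest, each one with a landrace-maize DMR, the 5 with most DMRs, the 5 nearest another comparison, and listed genes. The sweeps and lists were chosen with earlier results of these data known. Alternatives changed the overlap that counts as shared, the score limit, how a DMR is held, and its start. Tables were read with pandas 2.3.3 under Python 3.11.15, intervals came from scipy 1.17.1 with numpy 2.4.6, and plots were drawn in matplotlib 3.10.9. The sheet of sample descriptions was not used.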

Additional observations from a re-analysis of the deposited data

How the results depend on the processing

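The number of landrace-maize-only sweeps was 632, and it was 620 when a gap of up to 5 kb counted as shared, 560 with 50 kb, 641 and 801 when sharing needed 10% or 50% of the length covered, and 859 when only the upper 50% by score of the other comparisons counted. The 50% rule added 169 sweeps and moved the median length to 130 kb and the median XP-CLR to 81.7. Keeping only the upper 50% by score of all landrace-maize sweeps left 239, with 5 CG and 4 CHG DMRs between landraces and modern maize, 32 CG, 42 CHG and 14 CHH DMRs between teosinte and modern maize, and 0 CHH DMRs between teosinte and landraces. This follows from the fewer sweeps kept, and of the densities the teosinte-maize CG one moved, to 0.842 per Mb, above the genome's 0.734, as did the teosinte-landrace CHH one, to 0. The teosinte-landrace CG and CHG densities went up to 0.237 per Mb each, within their intervals, with CG above the genome's 0.205 and CHG below its 0.280. Of 102 values computed under alternatives 91 stayed within the limits set for them (1.5 times for a count, the 95% interval for a median or density), those for DMRs wholly inside a sweep, DMR starts counted from 1 and sweeps over 500 kb left out included. No paired analysis was possible because each sweep and DMR was called once between populations and no test was run. The 17 landrace-maize DMRs limit what their density can show.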
